A study of Homo sapiens with 4 samples.

Results

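Peaks of H3K27ac that were called inside gene bodies with daunorubicin, and had no counterpart in untreated cells, numbered 18150 of the 65118 peaks of the daunorubicin library (27.9%). They were selected on the peak calls and on the deposited peak score: a score under 100, no shared base with an untreated H3K27ac peak, an overlap with an annotated gene, and a position more than 1 kb from both ends of every gene. Their number, scores and lack of an untreated partner are therefore descriptions. K562, a human cell line from chronic myeloid leukaemia in blast crisis, had been given 1 uM daunorubicin for 18 h or left untreated, and each condition had 1 H3K27ac library and 1 input library without antibody, in a study of ALDH1 expression and anthracycline resistance. There were no replicates, so nothing below has a replicate check, and intervals cover counting error only.

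H3K27ac is acetylation of lysine 27 of histone H3, written by EP300 and CREBBP and removed by histone deacetylases. It marks active promoters and, away from promoters, active enhancers, many of which lie in introns of the gene they act on or of a neighbour. Daunorubicin is an anthracycline that intercalates into DNA, poisons topoisomerase II and displaces histones. A gene that holds 1 or more of the daunorubicin-only peaks is called its host below, and a shared peak is a daunorubicin peak that overlaps an untreated one.

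The sequence that some of these peaks cover could be read where a listed transcript start lay inside a gene. RefSeq (GRCh38.p14) promoter windows run from 250 bases before a start to 50 bases after it, and 53 of the daunorubicin-only gene-body peaks covered 1 whole window each, at 52 genes. The 6 with the highest scores are shown because these bases are part of the peak itself, and the window of EPB42, a red cell gene, was added after its values were seen. CpG dinucleotides, the sites of DNA methylation that are dense at most housekeeping promoters, are in capitals, and each window is written 5′ to 3′ on the strand of its gene.
ENTPD1, chr10:95741784-95742083, plus strand: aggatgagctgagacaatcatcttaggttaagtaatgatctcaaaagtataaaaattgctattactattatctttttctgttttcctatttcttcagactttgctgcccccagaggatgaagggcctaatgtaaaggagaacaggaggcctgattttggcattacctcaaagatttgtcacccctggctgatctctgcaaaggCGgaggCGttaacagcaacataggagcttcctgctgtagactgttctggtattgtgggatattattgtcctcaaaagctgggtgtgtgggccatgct
NPAS3, chr14:32938629-32938928, plus strand: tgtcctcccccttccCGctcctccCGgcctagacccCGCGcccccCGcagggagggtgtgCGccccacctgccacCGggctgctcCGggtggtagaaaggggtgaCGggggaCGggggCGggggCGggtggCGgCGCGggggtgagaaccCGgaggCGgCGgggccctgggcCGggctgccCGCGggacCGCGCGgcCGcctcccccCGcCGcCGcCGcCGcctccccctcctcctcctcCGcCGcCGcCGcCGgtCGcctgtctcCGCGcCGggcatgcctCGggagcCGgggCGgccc
KCTD1, chr18:26548504-26548803, minus strand: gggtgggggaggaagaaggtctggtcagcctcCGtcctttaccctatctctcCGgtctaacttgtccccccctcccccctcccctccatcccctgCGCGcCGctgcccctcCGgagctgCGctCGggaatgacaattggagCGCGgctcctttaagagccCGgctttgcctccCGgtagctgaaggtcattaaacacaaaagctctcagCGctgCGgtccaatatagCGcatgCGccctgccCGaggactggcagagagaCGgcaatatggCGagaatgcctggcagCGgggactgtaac
C2orf66, chr2:196809306-196809605, minus strand: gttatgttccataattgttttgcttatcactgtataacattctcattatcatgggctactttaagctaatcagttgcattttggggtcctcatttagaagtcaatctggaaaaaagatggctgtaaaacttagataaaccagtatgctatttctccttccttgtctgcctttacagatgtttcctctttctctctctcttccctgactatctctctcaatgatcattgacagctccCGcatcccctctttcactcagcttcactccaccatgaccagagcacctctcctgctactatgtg
GTPBP2, chr6:43627292-43627591, minus strand: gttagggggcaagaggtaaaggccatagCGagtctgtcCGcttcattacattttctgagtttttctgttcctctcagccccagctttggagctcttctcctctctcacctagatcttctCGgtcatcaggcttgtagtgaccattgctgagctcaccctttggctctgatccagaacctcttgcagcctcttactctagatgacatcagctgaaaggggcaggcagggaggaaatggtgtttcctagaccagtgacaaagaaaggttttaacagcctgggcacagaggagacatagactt
SYT2, chr1:202643404-202643703, minus strand: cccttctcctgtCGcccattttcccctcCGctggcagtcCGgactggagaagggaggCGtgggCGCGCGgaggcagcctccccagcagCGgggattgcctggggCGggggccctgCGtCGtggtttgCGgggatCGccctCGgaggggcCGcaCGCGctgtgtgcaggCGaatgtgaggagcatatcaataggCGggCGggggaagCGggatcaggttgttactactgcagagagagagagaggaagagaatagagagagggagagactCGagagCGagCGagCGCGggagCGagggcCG
EPB42, chr15:43220969-43221268, minus strand: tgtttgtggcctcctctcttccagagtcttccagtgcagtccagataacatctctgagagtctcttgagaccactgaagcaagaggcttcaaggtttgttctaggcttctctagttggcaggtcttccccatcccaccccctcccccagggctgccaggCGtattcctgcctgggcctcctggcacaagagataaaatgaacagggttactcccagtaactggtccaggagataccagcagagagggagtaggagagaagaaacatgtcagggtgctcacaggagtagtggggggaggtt

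The 7 windows fell into CpG-rich and CpG-poor ones. NPAS3, a brain transcription factor, had 42 CpG in 300 bases, SYT2, a synaptic calcium sensor, had 28, and KCTD1 had 20. GTPBP2, a GTP-binding protein, had 3, ENTPD1, the ectonucleotidase CD39 of immune cells, had 2, and C2orf66 and EPB42 had 1 each. The peak over the NPAS3 window (chr14:32938578-32939819, score 83) lay 508 kb from the nearest untreated peak, and that over the KCTD1 window (chr18:26548306-26549219, score 81) lay 250.4 kb from one. At GTPBP2 the gap was only 0.699 kb. EPB42 encodes protein 4.2, which ties band 3 to the red cell skeleton. Its single daunorubicin peak (chr15:43220861-43222148, score 50) spanned a listed start inside the gene. The start of the whole gene span had no peak within 1 kb in either library. The untreated library had 0 peaks on the gene and none closer than 34.4 kb to the daunorubicin peak.

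Such starts accounted for few of the daunorubicin-only peaks. Of the 17321 on chromosomes with listed starts, 294 lay within 1 kb of a start inside a gene, 1.70% (95% Wilson interval 1.52 to 1.90). Among shared gene-body peaks the share was 4.80% (4.41 to 5.21), outside that interval, and among peaks called only in untreated cells it was 1.77% (1.33 to 2.36). The 326 internal starts near a daunorubicin-only peak had a median of 6 CpG per window (quartiles 3 and 21). Starts near an untreated peak, 1646 in number, had 21.5, the 3315 near no H3K27ac peak had 4, and all 5268 internal starts had 7 (quartiles 3 and 20), so the starts near a daunorubicin-only peak were close to internal starts at large. All 35116 windows, internal or not, had 14.

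Short motifs were counted on both strands of the same windows. The GATA motif AGATAA, bound by the erythroid factor GATA1, was in 16.9% of windows near a daunorubicin-only peak. It was in 6.99% near an untreated peak, 15.2% near no peak, 12.7% of all internal starts and 10.3% of all windows. The AP-1 motif TGANTCA, bound by FOS and JUN dimers, was in 13.5%, 7.11%, 10.3%, 9.51% and 7.71% of those 5 sets, in the same order. The TATA motif TATAAA was in 13.8%, 6.62%, 16.5%, 13.3% and 11.5%, so its share near a daunorubicin-only peak was close to that of all internal starts. The sets near a daunorubicin-only and near an untreated peak can share starts. Of the windows printed above, ENTPD1 held TATAAA and AGATAA, and C2orf66 and EPB42 held AGATAA. A match is a run of letters and not a bound site.

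As a group the daunorubicin-only gene-body peaks were narrow and low in score. The score is the authors' own value from the peak caller. Their median score was 25 (quartiles 19 and 35, range 10 to 99) and their median width 428 bp (208 to 3499). Shared gene-body peaks under the same limit, 11507 in number, had a median score of 45 and a median width of 896 bp. The 8048 daunorubicin-only peaks outside genes were close to the gene-body ones, with medians of 27 and 444 bp. Peaks called only in untreated cells inside gene bodies had a median score of 20 in their own list and a median width of 345 bp. The share of gene-body daunorubicin peaks without an untreated partner was lower at higher scores. It was 85% at scores of 10 to 19, 75.9% at 20 to 29, 58% at 30 to 49 and 26.1% at 50 to 99.

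Most weak gene-body peaks of the daunorubicin library had no untreated partner. Of all daunorubicin peaks 46.3% overlapped no untreated peak, and of the 29657 gene-body peaks under the score limit 61.2% did not. Exchanging the libraries gave 2680 of 15672 untreated gene-body peaks without a daunorubicin peak, 17.1%. The lists differ in length, 65118 peaks with daunorubicin and 38626 without, and the order turned when they were made equal. With the daunorubicin list reduced to its 38626 highest-scoring peaks, there were 5233 daunorubicin-only gene-body peaks, against 6044 untreated-only ones. That cut removed weak peaks from the daunorubicin list only. The order did not turn when only scores from the untreated median up were taken, with 2822 daunorubicin-only and 146 untreated-only gene-body peaks. That floor applied to the peaks counted, while partners were still sought in the whole other list, which is longer for untreated peaks. Whether scores are on the same scale in both lists is unknown. Depth and enrichment of the libraries are unknown here, and their part in the difference between the lists was not tested. No daunorubicin-only gene-body peak overlapped any of the 87 peaks of the daunorubicin input or the 92 of the untreated input. With input lists this short few overlaps were possible, and whether inputs were used in peak calling is not given. The count therefore says little about background among the weak peaks.

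Both limits of the selection cut through a continuous range. There were 12 peaks at a score of 99, just inside, and 8 at 100, just outside, and 124 otherwise eligible peaks scored 100 or more, up to 258. Between 1000 and 1100 bp from the nearest gene end there were 160 peaks, and between 900 and 1000 bp there were 129. Among the highest scorers (99) were peaks in LEF1, a transcription factor of WNT signalling (chr4:108093868-108095036), TIAM2, a RAC exchange factor (chr6:155080332-155081154), FBXO42 (chr1:16266046-16267150) and SCOC (chr4:140331081-140332102). The LEF1 peak lay 3.01 kb from an untreated peak and the TIAM2 peak 72.8 kb. Others with this score lay in ADGRF3, STK3, MTSS1, the pseudogene ENPP7P8 and the lncRNA genes STX18-AS1 and LOC105375237. Exons and introns could not be told apart with the gene table used.

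The widest of all lay in RHEX, a regulator of erythropoietin signalling in red cell precursors. It covered 3499 bp (chr1:206065502-206069000) with a score of 98. CNOT6, a deadenylase, held one of 2941 bp, and OIT3 one of 2811 bp.

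Most daunorubicin-only gene-body peaks lay more than 5 kb from any untreated peak. The median gap to the nearest untreated peak was 10.2 kb, 28.8% (28.2 to 29.5) lay within 5 kb of one and 10.9% within 1 kb. For daunorubicin-only peaks outside genes these values were 11.9 kb, 25.6% and 8.01%. Untreated-only gene-body peaks had a median gap of 4.16 kb to the longer daunorubicin list, with 54.4% within 5 kb. Gene bodies of all biotypes held 11.7 daunorubicin-only peaks per Mb, and the space between genes held 6.19. Shared peaks had a similar tilt, with 7.44 and 3.56 per Mb, so that the ratio of daunorubicin-only to shared peaks was 1.58 inside genes and 1.74 between them. Gene bodies took 60.7% (60.2 to 61.3) of all daunorubicin-only peaks under the score limit and 64.9% (63.4 to 66.3) of untreated-only peaks.

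Protein-coding genes held 84.0% of the daunorubicin-only gene-body peaks, lncRNA genes alone held 14.5%, and 7.47% lay in 2 or more genes at once. The peaks had 6011 hosts among 20037 protein-coding genes, 30%, or 14.1% when the daunorubicin list is reduced to the length of the untreated one. Of the hosts, 47.2% had 1 such peak and 52.8% had 2 or more (31.5% with lists of equal length, 21.3% with scores from the untreated median up), with 833 genes at 5 or more, 192 at 10 or more and 20 at 20 or more. The 192 genes with 10 or more, 3.19% of the hosts, held 14.4% of all the peaks.

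**Figure D1:**
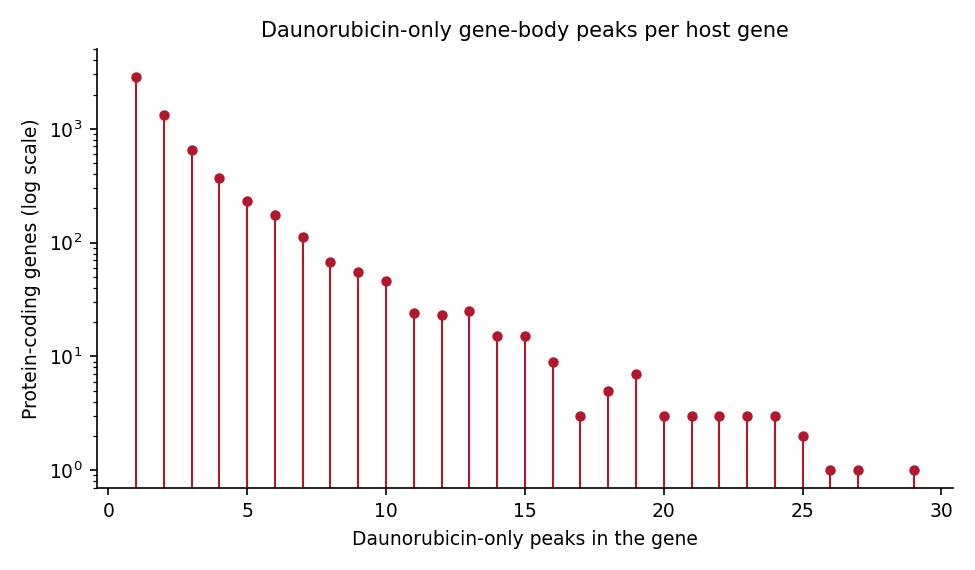
Number of protein-coding genes (vertical axis, log scale) by the number of daunorubicin-only gene-body peaks they host (horizontal axis). Each point is 1 count class of the 6011 hosts; there are 2835 genes with 1 peak and a single gene with 29.

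Hosts were long genes. Their median span was 71.7 kb (95% exact binomial interval 69.1 to 74.4), against 14.3 kb (13.9 to 14.7) for protein-coding genes without a daunorubicin-only peak and 24.1 kb for all. Hosts with 1 peak had a median of 44.6 kb, those with 5 or more 198 kb, and those with 10 or more 305 kb. A long gene offers more room for any peak, and the other classes of gene-body peak also lay in long genes: hosts of shared peaks had a median of 68.6 kb and hosts of untreated-only peaks 88.5 kb.

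The share of genes that were hosts climbed with length up to 300 kb and then levelled off. It was 2.67% under 10 kb, 18.8% at 10 to 30 kb, 47.1% at 30 to 100 kb, 67.7% at 100 to 300 kb, 64.3% at 300 to 1000 kb and 59.4% at 1000 kb or more. Per Mb of gene body the picture was different. The density was 11.1, 15 and 17.3 peaks per Mb in the first 3 classes, then 16.0, 8.02 and 1.80 in the longer ones. Shared peaks thinned out in the same way, with 10.7 per Mb at 100 to 300 kb, 4.66 at 300 to 1000 kb and 0.766 in genes of 1000 kb or more. The ratio of daunorubicin-only to shared peaks was lowest under 10 kb, at 1.24, and highest in the longest genes, at 2.35, where it rests on 169 and 72 peaks. With the daunorubicin list reduced to the length of the untreated one, the 6 densities were 2.56, 3.94, 4.85, 4.46, 2.40 and 0.638, again highest at 30 to 100 kb.

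**Figure D2:**
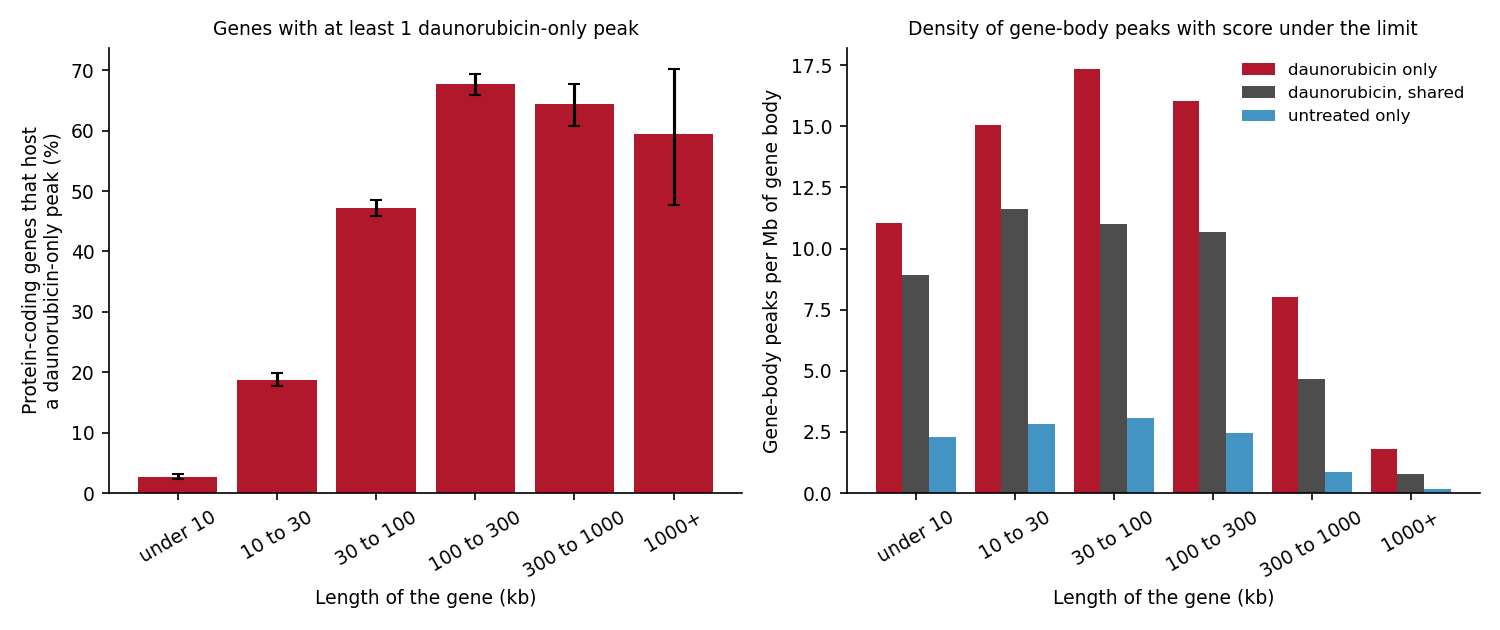
Left, percent of protein-coding genes of each length class (kb) that host a daunorubicin-only gene-body peak, with 95% Wilson intervals. Right, gene-body peaks under the score limit per Mb of gene body, for daunorubicin-only (red), shared daunorubicin (grey) and untreated-only peaks (blue); all 3 densities are lowest in genes of 1000 kb or more.

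The longest genes varied widely. RBFOX1, a neuronal splicing factor of 2474 kb, hosted 1 daunorubicin-only peak and had no other peak in either library. CNTNAP2, a neuronal adhesion protein, hosted 2 and DLG2, a synaptic scaffold, 1. DMD, which encodes dystrophin, and CSMD1 hosted 7 each, with 9 daunorubicin peaks on each gene against 2 and 3 untreated ones. Among the longest genes without any were PTPRD, PCDH15 and ROBO2, neuronal receptors and adhesion proteins with no peak in either library, and AGBL4, with 3 daunorubicin and 2 untreated peaks.

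Genes already marked at an end in untreated cells carried most of the hosts. An end was counted as marked if a peak lay within 1 kb of it. Of the hosts, 73.1% (71.9 to 74.2) had an end marked without daunorubicin, against 52.1% (51.3 to 52.9) of the genes without a daunorubicin-only peak. The host share was higher for marked genes in each length class. At 100 to 300 kb, 83.7% of the 1557 marked genes were hosts and 43.4% of the 1026 unmarked ones, with 21.8 and 7.45 daunorubicin-only peaks per Mb. Shared peaks differed in the same direction there, 15 and 4.32 per Mb. Under 10 kb the shares were 3.33% and 2.1%. At 1000 kb or more they were 83.3% (60.8 to 94.2) of 18 marked and 51.0% (37.7 to 64.1) of 51 unmarked genes. Those intervals overlap, and the densities were close, at 2.00 and 1.73 daunorubicin-only peaks per Mb. No expression data were used here.

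For the 15842 protein-coding genes whose strand was listed, the start could be told from the 3′ end. Among hosts 71.7% had a start marked in both libraries, 4.81% with daunorubicin only, 0.449% without it only and 23% in neither. Among genes without a daunorubicin-only gene-body peak the shares were 52.3%, 3.66%, 0.704% and 43.3%. In genes of 30 kb or more, the share with a start marked with daunorubicin only was alike, 4.95% of hosts and 4.89% of the others. The peaks leaned slightly towards the start: 55.9% (55.0 to 56.7) of the pairs of a peak and its host lay on the start's side of the gene's midpoint. Shared peaks leaned more, at 58.3% (57.3 to 59.4), and untreated-only peaks alike, at 55.7% (53.5 to 57.8). In genes with a marked start the density was highest 10 to 20 kb from it, at 23.3 peaks per Mb, and 5.02 beyond 500 kb. Where the start was not marked it was 10.5 and 2.75 per Mb at those distances.

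**Figure D3:**
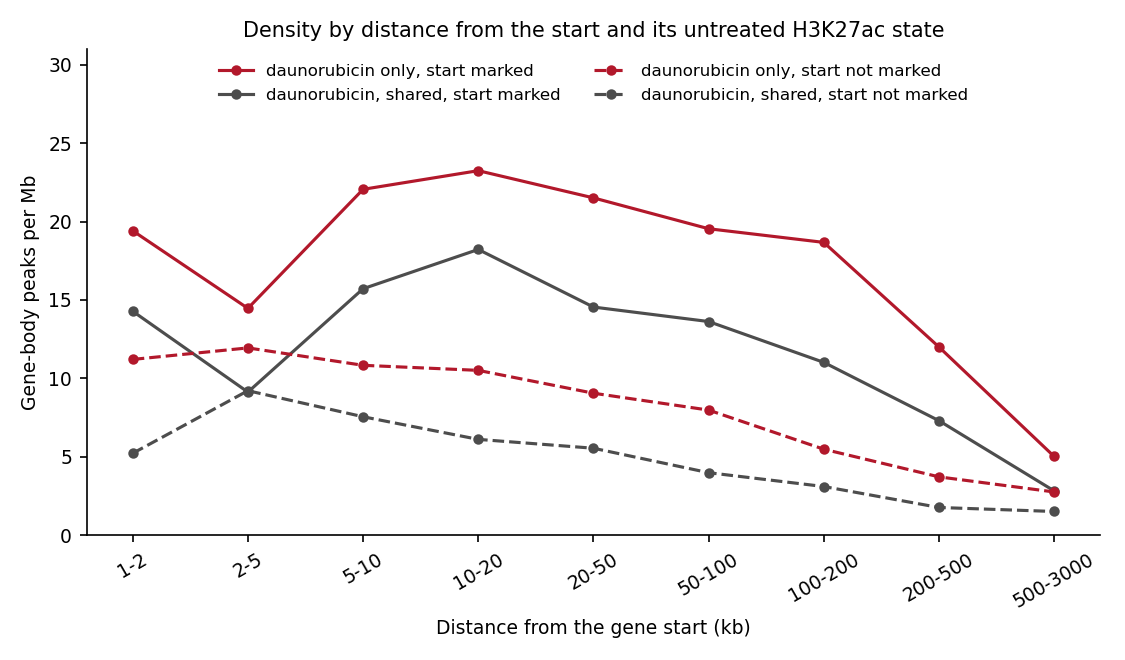
Gene-body peaks per Mb (vertical axis) by distance of the peak centre from the gene start in kb (horizontal axis), for protein-coding genes of known strand. Red lines are daunorubicin-only peaks and grey lines shared daunorubicin peaks; solid lines are genes whose start had an untreated peak within 1 kb and dashed lines genes without one. Daunorubicin-only peaks are denser in genes with a marked start at each distance, and shared peaks at each but 2 to 5 kb.

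The 10 genes with the most daunorubicin-only peaks were 286 to 863 kb long. CDKAL1, a transfer RNA modifying enzyme (chr6:20534457-21232404), led with 29. It had 51 daunorubicin peaks in all against 25 untreated ones, and the 29 were spread over 620 kb with a median spacing of 18.0 kb. MAST4, a microtubule-associated kinase (chr5:66596393-67169593), hosted 27, with 45 daunorubicin and 18 untreated peaks. SOX6, a transcription factor that helps silence embryonic and fetal globin genes (chr11:15966449-16738477), hosted 25, with 54 and 32. In these 3 genes the daunorubicin-only peaks were interspersed with peaks of both libraries.

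SKAP1, an adaptor protein best known from T cells (chr17:48133442-48445061), also hosted 25, but in a gene of only 312 kb with neither end marked. It had 38 daunorubicin peaks against 10 untreated ones. PARD3, a cell polarity scaffold, and ZFPM2, a GATA cofactor, hosted 24 each, with 33 against 11 and 43 against 18 peaks. MAML3, a coactivator of Notch signalling, and RAD51B, which acts in homologous recombination, hosted 23 each, with 52 against 30 and 46 against 19. CMSS1 hosted 26 and FILIP1L 24, but the 2 genes overlap and all 24 of FILIP1L are also in CMSS1, so they are 1 set of peaks and not 2. The median score of the daunorubicin-only peaks in these genes ran from 21 in CDKAL1 and SOX6 to 31 in SKAP1, and the highest single score was 79, in RAD51B (chr14:68232204-68233119).

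**Figure D4:**
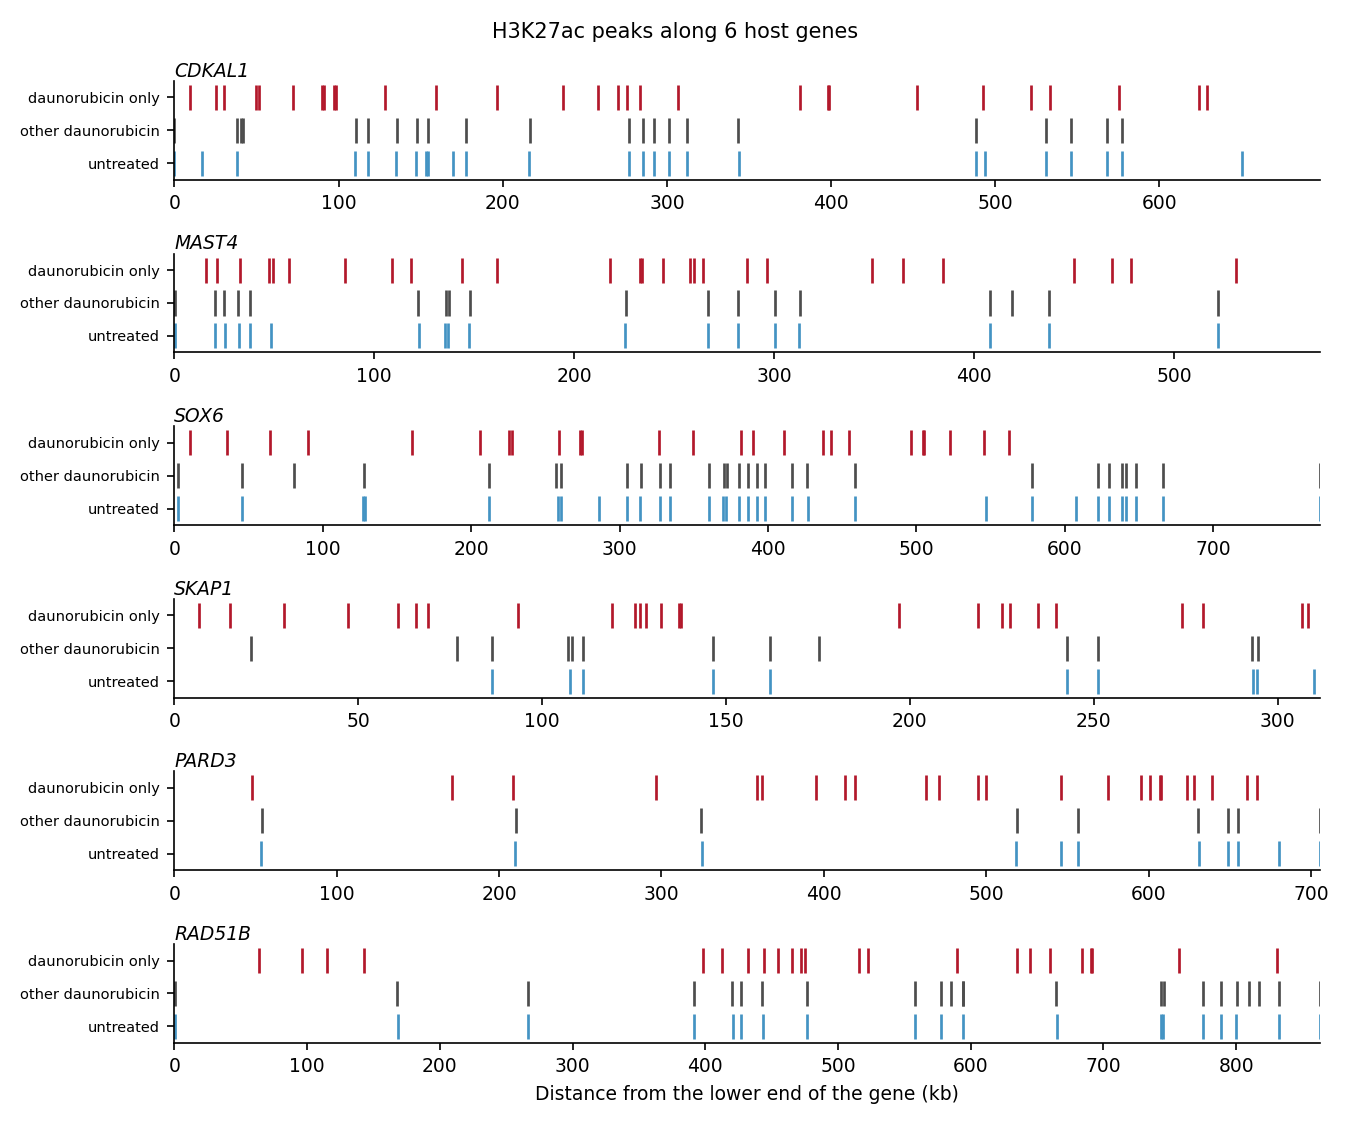
Positions of H3K27ac peaks along 6 of the genes with the most daunorubicin-only peaks, in kb from the end with the lower coordinate. In each panel the top row shows daunorubicin-only gene-body peaks, the middle row the other daunorubicin peaks and the bottom row untreated peaks; each tick is 1 peak centre. CDKAL1 has 29 ticks in the top row and SKAP1 25, with 10 in its bottom row.

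Relative to length, the densest hosts were genes of 22.5 to 40.4 kb, 8 of 10 with an end marked in untreated cells. Genes of at least 20 kb with at least 4 of the peaks were ranked by peaks per 100 kb. Such a ranking favours genes just over the length limit, so the range of lengths follows in part from the limits. LDHB, the lactate dehydrogenase B subunit (chr12:21635342-21657842), was first with 17.8 per 100 kb: 4 of its 5 daunorubicin peaks were of this kind, and it had 1 untreated peak. BNIP3L, the mitophagy receptor that clears mitochondria from maturing red cells (chr8:26383054-26413127), followed with 16.6, from 5 of 6 daunorubicin peaks and with 1 untreated peak; 1 of the 5 scored 93. GYS1, glycogen synthase of muscle and other tissues, and GGA3, a clathrin adaptor of the Golgi, showed the same layout, with 4 of 5 daunorubicin peaks and 1 untreated peak each. ARSD and TBPL2 differed, with 4 daunorubicin peaks each, all unshared, and 0 untreated peaks. The others were SLAMF1, a receptor of blood cells, GALNT6, SNX5 and BPNT2, at 13.9 to 15.4 per 100 kb.

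Some hosts had no H3K27ac peak of any other kind. Of the 1857 protein-coding hosts with 3 or more daunorubicin-only peaks, 41 had neither another peak on the gene nor one within 1 kb of its ends. PRKCH, protein kinase C eta (chr14:61187468-61550976), had the most, 7, with scores of 14 to 51. GPC6, a glypican, and PDE4D, a cyclic AMP phosphodiesterase, had 5 each in genes over 1000 kb long. PLEK, pleckstrin, a protein kinase C substrate of platelets (chr2:68365282-68397453), had 4 in 32.2 kb, with scores of 25 to 40. RARRES1, a retinoic acid responsive gene, RAMP1, ARSD, SYNE1, TOX2 and FAM184B also had 4. The SYNE1 peak with the highest score, 94 (chr6:152233166-152234086), lay 747 kb from the nearest untreated peak. At all these genes the untreated count was 0.

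Most daunorubicin-only gene-body peaks had no other of their own kind within 10 kb. Joined only to each other at gaps of up to 10 kb, they formed 13478 chains, and 55.8% of the peaks had no partner of this kind. Other daunorubicin peaks lay closer: the median gap to the nearest other peak of the whole daunorubicin list was 5.36 kb. To the nearest peak of the same kind it was 12.7 kb. That gap was longer in the other classes, which hold fewer peaks. It was 16.1 kb for shared gene-body peaks, 16.5 kb for daunorubicin-only peaks outside genes and 115 kb for untreated-only gene-body peaks. Only 284 chains had 4 or more, holding 7.02% of the peaks, and 165 of these spanned no untreated peak. The genes of the largest chains were named after their values were seen. ANKRD44 held 10 peaks in 38.2 kb (chr2:197137232-197175381), with 3 untreated peaks in the same stretch. SAMSN1 held 9 in 51.3 kb with 8 untreated peaks. HDAC9, a class IIa histone deacetylase, held 8 in 24.1 kb with 1, and a stretch of 32.5 kb in ACTR3C and LRRC61 held 8 with 4. Of the 10 chains of 7 peaks, those in MTSS1, CUBN, SKAP1 and PIK3AP1 spanned no untreated peak, those in EPB41L2, DYM and ST3GAL3 spanned 1, and those in CLEC16A, ARHGEF6 and LRBA spanned 2, 3 and 4.

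Gene groups were set beside all protein-coding genes of the same length classes, since the share of hosts differed so much by length. In the group of BCR-ABL1, the fusion kinase that drives K562, and receptor kinase signalling, 19 of 24 genes were hosts, against 51.7% of genes of those lengths. GAB2, the adaptor that carries BCR-ABL1 signals to PI3 kinase, hosted 15, with 37 daunorubicin peaks against 25 untreated ones. IGF1R, a growth factor receptor, hosted 14, with 21 against 7, and LYN, a SRC family kinase, 7, with 13 against 7. ABL1 hosted 7 and BCR 4. JAK2, AKT1, CRK, STAT5A and EPOR hosted none. The MAP kinase cascade had 13 hosts of 20 genes (56.0%), with 7 peaks each in MAP2K1 and MAP3K4 and 6 in MAP2K4.

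Of the red cell membrane skeleton genes 18 of 22 were hosts, against 47.2% at those lengths. SPTBN1, a beta spectrin, hosted 10 of 18 daunorubicin peaks with 7 untreated ones, EPB41, protein 4.1, hosted 8 of 18 with 12, and SPTB, the red cell beta spectrin, 7 of 10 with 3. SLC4A1, which encodes band 3, resembled EPB42: 1 daunorubicin-only peak and 0 untreated peaks on the gene. Erythroid and stem-cell transcription factors had 12 hosts of 20 (43.1%). RUNX1 hosted 15, and MEIS1 and ETV6 5 each, while GATA1, TAL1, KLF1, LYL1, LDB1, GFI1B, ZFPM1 and FLI1, genes of 2.78 to 128 kb, hosted none. ZFPM1 had 9 daunorubicin peaks against 11 untreated ones. Iron and haem genes had 7 of 20 (26.9%), or 4 when a gap of over 1 kb to every untreated peak is required, with 3 peaks each in IREB2 and SLC11A2.

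Chromatin regulators included several of the fullest hosts. Histone methylation enzymes had 17 hosts of 20 (56.3% at those lengths). KMT2C, an enhancer H3K4 methyltransferase, hosted 16 with 21 daunorubicin peaks against 7 untreated ones, and KDM6A, an H3K27 demethylase, 13 with 16 against 4. EZH2, the H3K27 methyltransferase, hosted 6. Genes that write, read or erase histone acetylation had 15 of 21 (48.7%): HDAC9 hosted 19, KAT6A 10 and KAT6B 9, EP300 1, and KAT2A, KAT5, BRD2, BRD3, HDAC5 and HDAC8 none. MicroRNA pathway genes had 10 hosts of 12 (53.7%), of which TNRC6B, a silencing scaffold, hosted 15, TNRC6A 6 and AGO3 5. Transcription elongation genes had 7 of 20 (28.6%), led by AFF1 and ELL2 with 7 each and AFF3 with 6.

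Pathways tied to the action of the drug gave mixed counts. Topoisomerase and break repair genes had 11 hosts of 24 (49.4%), and 23 of their 51 peaks were in RAD51B. FANCC hosted 7 and TOP1 4, TOP2B, a target of anthracyclines, 1 and TOP2A none. Of the BCL2 family and caspases 10 of 20 (35.6%) were hosts, with 13 peaks in CRADD, 6 in BCL2 and 5 in BIRC6. Of p53 targets, in a line known to lack functional p53, 9 of 20 (30.8%) were hosts, with 3 peaks in POLH and 2 each in XPC and ZMAT3. The NRF2 pathway had 11 of 20 (33.8%), BACH1 and CUL3 with 5 each and SLC7A11 with 2.

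Efflux and uptake transporters had 11 hosts of 16 (53.1%). ABCC4 hosted 6, ABCC1 3 and ABCC5 2. ABCB1, the P-glycoprotein that pumps out anthracyclines, had 2 daunorubicin peaks, both unshared and inside the gene, and 0 untreated ones. In the ALDH family 4 of 19 genes were hosts, against 36.9% at those lengths. ALDH2 hosted 2, and ALDH9A1, ALDH1A2 and ALDH6A1 1 each. ALDH1A1 and ALDH1A3 hosted none.

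Of 20 long genes at common fragile sites, 16 were hosts, 80% (95% Wilson interval 58.4 to 91.9), an interval that holds the 60.7% at those lengths, with 13 peaks in IMMP2L, 11 in GPHN and 7 in DMD. Of 21 long neuronal adhesion and receptor genes, 6 were hosts, 28.6% (13.8 to 49.96), below the 61.8% at those lengths, with 7 in NRXN3, 4 in PCDH9 and 2 in GRM5. An end was marked in untreated cells at 12 of the fragile-site genes and at 1 of the neuronal genes. All lists were chosen with earlier results of these libraries known, and their counts are descriptions. The interval of the host share lay above the share at the same lengths for the BCR-ABL1, red cell skeleton, histone methylation, histone acetylation, microRNA and NRF2 lists. It lay below that share for the neuronal list, and held it for the other lists described. The margin was narrow for NRF2 (lower bound 34.21% against 33.81%), microRNA (55.2% against 53.69%) and histone acetylation genes (50.04% against 48.68%). The interval covers counting error only, with 1 library per condition, and was not corrected for the number of lists. These positions are therefore descriptions and not tests. The comparison matched gene length and not the state of the ends. An end was marked in untreated cells at 24 of 24 genes of the BCR-ABL1 list and 20 of 20 of the NRF2 list. The numbers were 20 of 21 for histone acetylation, 18 of 20 for histone methylation, 10 of 12 for microRNA and 15 of 22 for red cell skeleton genes. Of all protein-coding genes 58.4% had such an end. The part of end marking in the host shares of the lists was not tested. With the daunorubicin list reduced to the length of the untreated one, the hosts numbered 12 in the BCR-ABL1 list, 8 in the MAP kinase list, 4 and 3 among erythroid factors and iron genes, 7 among histone methylation and 6 among acetylation genes, and 3 among elongation genes. They numbered 9 among fragile-site genes, 6 among transporters, 6 in the BCL2 family list, 4 in the NRF2 list, 2 among p53 targets and 1 in the ALDH family, and in the other 4 lists they were within 1.5 times of the counts above. The host share of all protein-coding genes also fell with the reduced list, from 30% to 14.1%. Shares at the same lengths were given for the full list only. The reduced counts therefore do not show whether a list still lay above or below genes of its lengths.

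**Figure D5:**
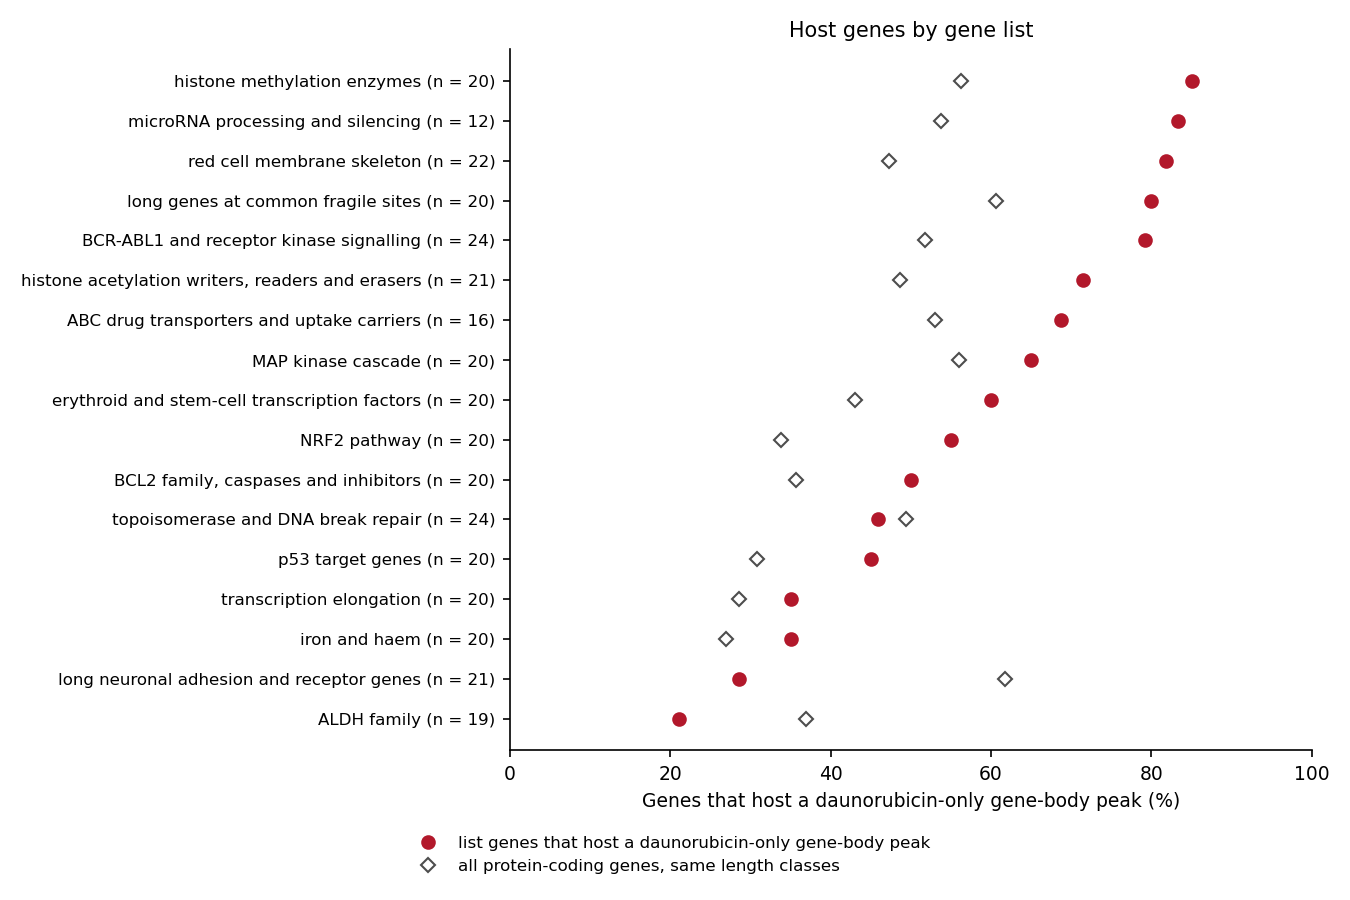
Percent of the genes of each list described that host a daunorubicin-only gene-body peak (red circles) and of all protein-coding genes in the same length classes (open diamonds); the number of genes per list is given as n. Red cell membrane skeleton genes lie to the right of their diamond, at 81.8% against 47.2%, and long neuronal genes to the left, at 28.6% against 61.8%.

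The identity of the cells was checked on marker genes. Of 12 erythroid markers of K562, 11 had an end marked with daunorubicin and 10 without it, HBE1 being marked in neither library. Of 19 markers of T cells, B cells, monocytes, hepatocytes and epithelium the numbers were 8 and 7, including CD3D, CD79A, LYZ and EPCAM in both libraries. For scale, 58.4% of all protein-coding genes had an end marked without daunorubicin. A peak within 1 kb of an end can belong to a neighbouring gene.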

How the data were processed

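The authors deposited 1 peak list per library, and its score is the only measured value. Peaks were called per library, and the submitters' processing notes name MACS2 2.1.1, Bowtie2 2.3.4.3, deepTools 3.2.1 and the builds hg19 and hg38. The sources used here give no threshold, no use of inputs and no formula for the score. The lists carry hg38 sequence names, and coordinates count from 1. Gene spans came from RefSeq GRCh38.p14 (59679 genes, 20037 protein-coding), without exons. Strand and starts came from the RefSeq promoter windows, which list none on chromosome 8.

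Peaks overlapped if they shared 1 bp. Densities use gene span more than 1 kb from every gene end. A peak in overlapping genes counts for each. Intervals are 95% Wilson or exact binomial. With 1 library per condition no test between conditions was made. Overlap functions were checked against bedtools on simulated peaks. Python 3.11.15, numpy 2.4.6, pandas 2.3.3 and scipy 1.17.1 were used.

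The members of the peak set, the gene lists and the 9 alternatives (other limits, gene tables and list lengths) were chosen with earlier results of these data known. Genes were named by rule: the 10 hosts with the most peaks, the 10 densest of at least 20 kb with at least 4 peaks, the hosts of the 10 highest scores, the 5 longest genes with and without a peak, 3 per list, and up to 10 hosts with 3 or more peaks and no other. Other genes were picked after their values were seen. Some genes that the rule names, and 1 gene list, are not reported here.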

Additional observations from a re-analysis of the deposited data

How the results depend on the processing

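Of the alternatives, those that change which peaks are compared moved the results most. With the daunorubicin list cut to as many top-scoring peaks as the untreated list, there were 5233 daunorubicin-only gene-body peaks and 6044 untreated-only ones, gene bodies took 56.1% of daunorubicin-only peaks, 14.1% of protein-coding genes were hosts, 31.5% of the hosts had 2 or more, and the median host length was 97.7 kb. With scores from 43, the untreated median, to the limit, these values were 2822, 146, 54.1%, 8.83%, 21.3% and 109 kb. When only a reciprocal overlap of 50% counted as shared, they were 22798, 7876, 59.6%, 33.5%, 56.0% and 65.9 kb.

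A gap of over 1 kb to every untreated peak gave hosts of 28.0%, 51.2% with 2 or more, and 76.0 kb. Gene ends of 2.5 kb gave a gene-body share of 54.4%, 27.1% hosts and 79.4 kb, and protein-coding genes only gave 53.4% and 30.8%. The other settings (no score limit, input peaks removed, chromosomes 1 to 22 and X) moved none of these 6 values beyond its counting interval or, for counts, by over 1.5 times. The untreated-only counts and hosts per list were alternatives chosen after seeing the data. No paired analysis was possible because each condition has 1 library. Depth is unknown, so a peak missing from a list is not shown to be absent from the cells.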

Other observations

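Long noncoding RNA genes also hosted daunorubicin-only gene-body peaks. Counting peaks that lay in no protein-coding gene, MIR3681HG on chromosome 2 hosted 24, with 59 daunorubicin peaks on the gene against 39 untreated ones. LOC643339 on chromosome 12 hosted 20, with 37 against 19. PVT1, the neighbour of MYC, hosted 17, with 38 against 25, and CCDC26, a noncoding gene in the same region of chromosome 8, hosted 13, with 24 against 14. STXBP5-AS1 hosted 16 and LINC00607 15. None of 1913 microRNA genes could host a peak, since each is shorter than the excluded ends.

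The density differed between chromosomes, from 7.60 daunorubicin-only peaks per Mb of gene body on X to 16.5 on 17. Their ratio to shared gene-body peaks was lowest on chromosome 19, at 0.976 (404 and 414 peaks), and highest on chromosome 15, at 1.85 (682 and 368). Chromosome 19 was the only one of these 23 with fewer daunorubicin-only than shared gene-body peaks.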
